A study of Xenopus laevis with 4 samples.

Results

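The miR-200 family was followed in the embryonic epidermis of the frog Xenopus laevis through miR-200a, miR-200b and miR-429, the 3 rows that carry these names among the 98 miRNAs listed. The rows were picked by name, and they bear Xenopus tropicalis names. Epidermal explants were taken from embryos fertilized in vitro, with no treatment named in the labels, at the gastrula stage 11.5, when the tissue is not ciliated, and at the tailbud stage 26, when it is. Each stage has libraries a and b, made from a single pool of 50 explants and called technical replicates in the series text, so errors and p-values cover the spread between libraries and not between pools. The source names of both b libraries give stages 11.6 and 27, slightly later than their developmental stage labels, which were used here. Where a pair of values is given for a stage, library a comes first. Age and ciliation differ together, and their effects cannot be told apart.

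A miRNA is a short RNA that guides repression of mRNAs which pair with its seed, bases 2 to 8 from its 5′ end. In mammals the miR-200 family is a hallmark of epithelia, where it represses the transcription factors ZEB1 and ZEB2 and so keeps up E-cadherin, the adhesion protein that joins epithelial cells. In mammals miR-200a, miR-200b and miR-429 are processed from a shared primary transcript, and miR-200c and miR-141 from another. Neither miR-200c nor miR-141 had a row among the 98 miRNAs listed. The family falls into a pair of seed groups, which is why ratios between members are given beside the levels.

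The mature sequences are shown because the members differ in few bases and split by seed, which is in capitals (the deposited table writes T for U).
miR-200a: tAACACTGtctggtaacgatgt
miR-200b: tAATACTGcctggtaatgatgat
miR-429: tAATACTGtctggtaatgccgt
Positions count from the 5′ end, and the first letter belongs to the member named first. The seed of miR-200a differed from that of the other members by the single change C4T. miR-200b and miR-429 had the same seed and differed from each other at C9T, A19C, T20C and A22T, and miR-200b was 1 base longer. Each pair of members was identical at 18 of 22 bases, and all 3 shared the stretch CTGGTAA at bases 10 to 16. No other listed miRNA had either seed at bases 2 to 8. The closest other row in sequence, miR-29c, differed from miR-200a at 8 of 20 bases, aligned from the 5′ end without gaps. How many mismatches were allowed in read assignment is not given in the sources used here, so some exchange of reads between members cannot be told apart from their own levels.

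Values are CPM, the reads of a miRNA scaled to a total of 1000000 over the listed miRNAs, as deposited by the authors. In each column 100% of values were whole multiples of the lowest nonzero one (tolerance 1e-06). Taken as 1 read, it gives a depth of 22668 and 30406 miRNA reads at stage 11.5, and of 46892 and 41878 at stage 26. miR-427, an early embryonic miRNA that clears maternal mRNA, held 87.0% and 81.7% of reads at stage 11.5, and 7.57% and 6.95% at stage 26. Outside miR-427 there remained 2937 and 5574 reads at stage 11.5 and 43344 and 38966 at stage 26. Levels are therefore given in 3 ways: as deposited, after scaling by the trimmed mean of M values (TMM), and with miR-427 out of the total. TMM scaling moved the stages by 1.98 against each other on the log2 scale, and the median stage difference of all 52 tested miRNAs was 2.27 in CPM, 0.47 after scaling and -0.12 (of 51) with miR-427 out. Libraries of a stage differed by more than counting noise (chi-square per degree of freedom 20.6 at stage 11.5 and 7.10 at stage 26), so the counting intervals are too narrow. In bulk explants, a lower share of cells holding a miRNA and less of it per cell cannot be told apart.

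The family as a whole took a larger part of miRNA reads at the ciliated stage. It had 187 and 305 reads at stage 11.5, and 4072 and 3933 at stage 26. As a share of all listed miRNAs this was 0.825% (95% exact interval 0.711% to 0.951%) and 1.003% (0.894% to 1.12%) at stage 11.5. At stage 26 it was 8.68% (8.43% to 8.94%) and 9.39% (9.11% to 9.67%). The stages did not overlap, and the mean share was 9.89-fold higher at stage 26. Taken singly, 73.1% of tested miRNAs were also higher in both stage 26 libraries in CPM. With miR-427 out of the total, the share was 6.37% (5.51% to 7.31%) and 5.47% (4.89% to 6.10%) at stage 11.5. It was then 9.39% (9.12% to 9.67%) and 10.1% (9.80% to 10.4%) at stage 26. The stages still did not overlap, but the difference shrank to 1.65-fold, or 3.82 percentage points against 8.12. Here 39.2% of tested miRNAs, taken singly, were higher in both stage 26 libraries. An exact two-sided permutation test of 2 libraries against 2 gave p = 0.333 for both shares, the lowest value this design allows.

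The row xtr-miR-429 was the most abundant member in every library and the only one of the 3 that passed the test after TMM scaling and with miR-427 out of the total, fits in which 38.5% and 27.5% of tested miRNAs were called higher. It stood at 4279 and 6939 CPM at stage 11.5 (97 and 211 reads). At stage 26 it stood at 61482 and 64210 CPM (2883 and 2689 reads). By abundance in the library it was in place 6 and 9 at stage 11.5, and in place 5 and 4 at stage 26. Both stage 26 libraries lay far above both stage 11.5 libraries, of which b was higher. In CPM 73.1% of tested miRNAs were higher in both stage 26 libraries. After TMM scaling the values of miR-429 were 8925 and 13135 CPM at stage 11.5 and 30637 and 32640 at stage 26. On this scale miR-429 rose by 1.54 in log2 (SE 0.314, limma adjusted p = 0.0132). With miR-427 out of the total it stood at 33027 and 37854 CPM and then at 66514 and 69009. Again the stages did not overlap, as for 39.2% of tested miRNAs in this direction. The log2 fold change was then 0.94 (SE 0.203, limma adjusted p = 0.0197). This fit is 1 of 15 alternatives to the scaled one, over which the log2 fold change ran from 0.94 to 3.51. After scaling, omitting stage 26 library a gave log2 1.59, and omitting b gave log2 1.495. With 1 library left, the spread at stage 26 is not measured. Whether the call holds without either library is therefore not read from these fits.

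The row xtr-miR-200a, the sole carrier of its seed among the listed rows, came second in every library. It stood at 3353 and 2828 CPM at stage 11.5 (76 and 86 reads), and at 22413 and 25765 CPM at stage 26 (1051 and 1079 reads). The libraries of each stage lay close together, at 1.19-fold and 1.15-fold, and the stages were well apart. In CPM 73.1% of tested miRNAs were higher in both stage 26 libraries. After TMM scaling miR-200a stood at 6993 and 5354 CPM, then at 11169 and 13097 CPM. The stages still did not overlap, as for 46.2% of tested miRNAs in this direction. The scaled log2 fold change of 0.98 did not pass (SE 0.353, limma adjusted p = 0.0696), although in CPM as deposited it was 2.94 (limma adjusted p = 0.000773). With miR-427 out of the total, miR-200a stood at 25877 and 15429 CPM at stage 11.5 and at 24248 and 27691 CPM at stage 26. Library a of stage 11.5 then lay between the stage 26 libraries, so the stages overlapped. The log2 fold change was 0.37 (SE 0.364, limma adjusted p = 0.415). This fit is 1 of 15 alternatives to the scaled one, over which limma adjusted p ran from 0.000773 to 0.415. After scaling, omitting stage 11.5 library a gave log2 1.21, and omitting b gave log2 0.75. With 1 library left, the spread at stage 11.5 is not measured, so no call is read from these fits.

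The row xtr-miR-200b, which has the seed of miR-429, was the rarest member throughout. It stood at 618 and 263 CPM at stage 11.5, which rests on 14 and 8 reads. At stage 26 it stood at 2943 and 3940 CPM (138 and 165 reads). Library a of stage 11.5 was 2.35-fold above b, the widest spread between libraries of a stage among the members in CPM. After TMM scaling the values were 1288 and 498 CPM at stage 11.5 and 1466 and 2003 CPM at stage 26. The lower stage 26 library was then 1.14-fold above the higher stage 11.5 library, and the log2 fold change of 1.04 did not pass (SE 0.531, limma adjusted p = 0.157). In CPM it was 2.92 (limma adjusted p = 0.00164). With miR-427 out of the total the values were 4767 and 1435 CPM, then 3184 and 4234 CPM, so that library a of stage 11.5 was the highest of all 4. That log2 fold change was 0.48 (SE 0.724, limma adjusted p = 0.590). This fit is 1 of 15 alternatives to the scaled one, over which the log2 fold change ran from 0.37 to 2.92. After scaling, the size of the change turned on which stage 11.5 library was used. Omitting a gave log2 1.74, and omitting b gave log2 0.37. No library was omitted in the fit with miR-427 out of the total.

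**Figure D1:**
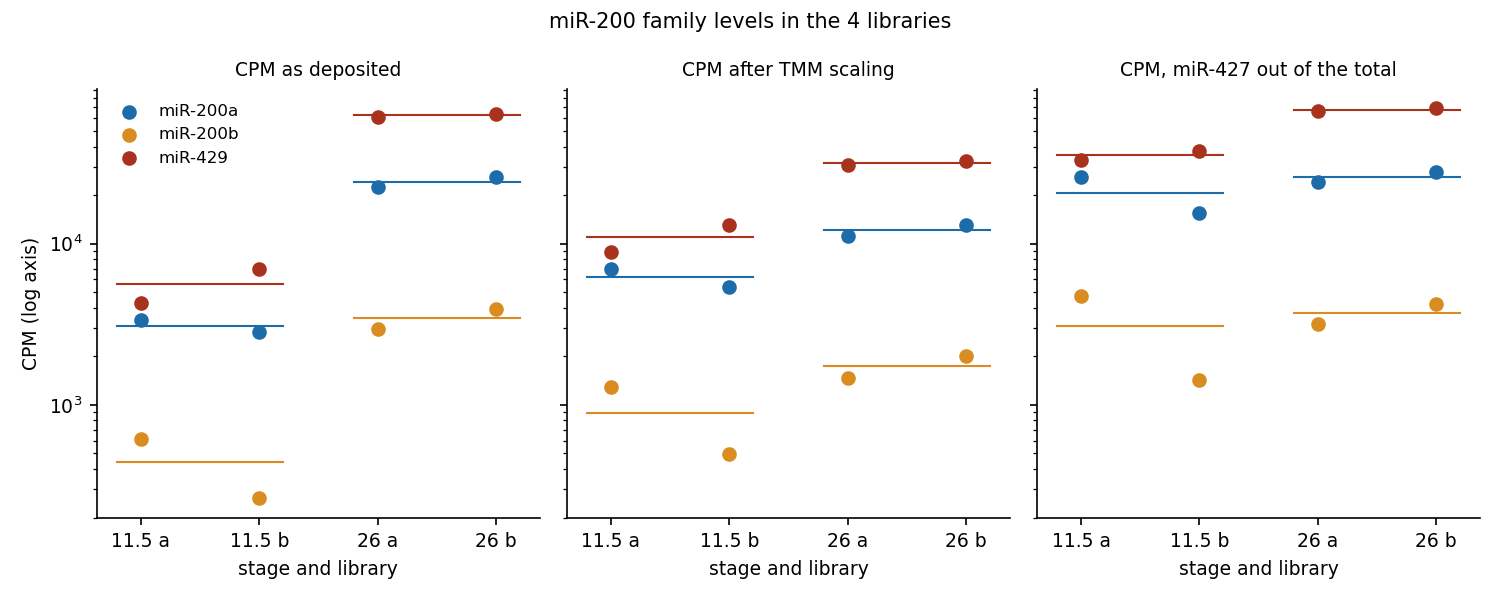
CPM on a log axis of miR-200a, miR-200b and miR-429 in the 4 libraries, as deposited, after TMM scaling and with miR-427 out of the total; points are libraries and lines are means of 2. In the left and middle panels every member is higher in both stage 26 libraries than in both stage 11.5 libraries. In the right panel this holds for miR-429 alone. The same separation held for 73.1%, 46.2% and 39.2% of tested miRNAs, from left to right.

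The members' calls have to be read against those of all tested miRNAs. All 3 members passed the filter on low values. At stage 11.5 miR-200b reached its 276.7 CPM in library a alone (618 and 263 CPM). It thus needed the stage where it is high to be tested, and its entries as higher below carry that selection. After TMM scaling 1 of 3 members rose, where 38.5% of the 52 tested miRNAs were called higher and 21.2% lower (20 and 11). In CPM as deposited all 3 were higher, where 71.2% of tested miRNAs were (37 higher and 6 lower). With miR-427 out of the total 1 of 3 was higher, where 27.5% of 51 were higher and 27.5% lower (14 each). By separation of the libraries, all 3 members were higher in both stage 26 libraries after scaling against 46.2% of tested miRNAs, and 1 of 3 with miR-427 out against 39.2%. In CPM as deposited this held for all 3, against 73.1%. The median log2 fold change of the members exceeded that of all tested miRNAs, at 2.94 against 2.27 in CPM. It was 1.04 against 0.47 after scaling and 0.48 against -0.12 with miR-427 out. Each scaling shifts all rows of a library together, so these 3 comparisons largely repeat 1 observation. Ordered by scaled log2 fold change, miR-429 was in place 16 of 52, miR-200b in place 20 and miR-200a in place 21. The members were thus in the upper part of the range without standing at its end.

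**Figure D2:**
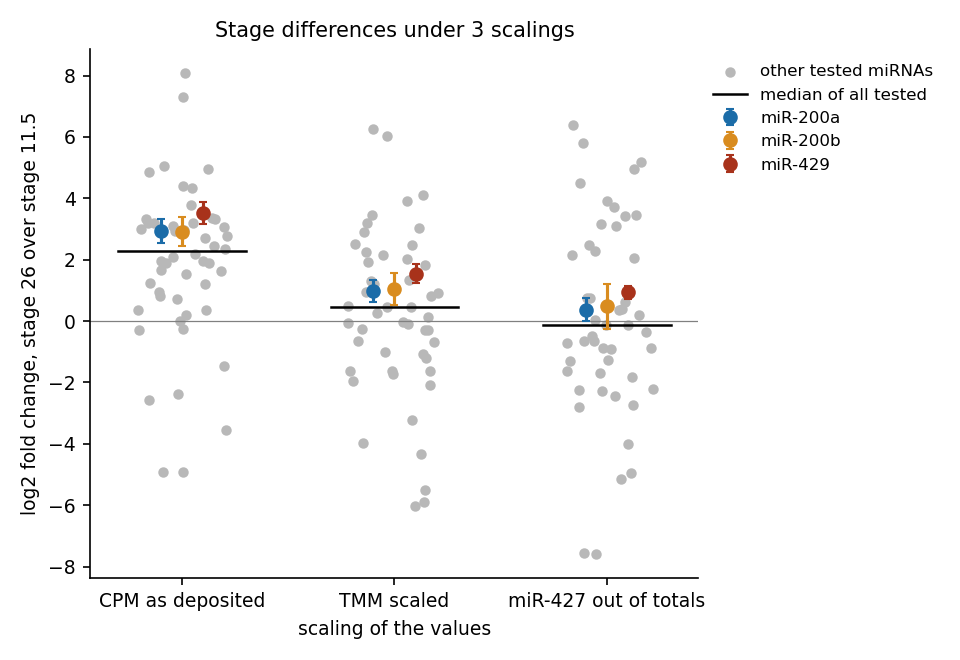
Log2 fold changes, stage 26 over stage 11.5, of all tested miRNAs under 3 scalings (x axis), with the members in colour (bars are SE), other miRNAs in grey and the median of all tested as a black line. The members lie above the median in each column, and the whole set shifts from a median of 2.27 in CPM to -0.12 with miR-427 out of the total.

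Ratios between members within a library need no total and no scaling factor, so miR-427 does not enter them. For the seed groups, the ratio of miR-200a to miR-200b plus miR-429 was 0.685 (95% exact interval 0.505 to 0.925) in library a of stage 11.5 and 0.393 (0.302 to 0.506) in library b. At stage 26 it was 0.348 (0.324 to 0.373) in a and 0.378 (0.352 to 0.406) in b. Library a of stage 11.5 stood apart, while library b of stage 11.5 lay close to both stage 26 libraries. The mean log2 ratio went from -0.95 ± 0.567 to -1.46 ± 0.0848 (SD, n = 2 libraries), a difference of -0.52 on the log2 scale (exact permutation p = 0.333, the lowest value 2 against 2 allows). This is 1.43-fold between stages, less than the 1.74-fold between the libraries of stage 11.5. Without library a of stage 11.5 the difference was -0.11, and without b -0.92, so its size was set by which of these libraries was used.

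The ratio of miR-200a to miR-429, the abundant members, followed the same course because miR-429 makes up nearly all of the shared seed group. It was 0.784 and 0.408 at stage 11.5, and 0.365 and 0.401 at stage 26. Both stage 26 values lay under both stage 11.5 values, by a margin of 0.401 against 0.408. The mean log2 difference was -0.56 (exact permutation p = 0.333). Omitting stage 11.5 library a left -0.09, and omitting b left -1.03. The ratio of miR-200a to miR-200b was 5.43 and 10.8 at stage 11.5 and 7.62 and 6.54 at stage 26. The stage 26 libraries lay between those of stage 11.5, with a mean log2 difference of -0.11 (exact permutation p = 1). The ratio of miR-429 to miR-200b, which have the same seed, was 6.93 and 26.4 at stage 11.5 and 20.9 and 16.3 at stage 26. Here too the stage 26 values lay between those of stage 11.5, which spread 3.81-fold, and the mean log2 difference was 0.45 (exact permutation p = 1). Adjusted over these 3 pairs, p was 1 for each. With 14 and 8 reads of miR-200b at stage 11.5, a shift in its ratios smaller than this spread was not detectable at this depth. Of all 1326 pairs of tested miRNAs, 80.8% had log2 ratios (50 CPM added to each) that did not overlap between stages in either direction, against 1 of the 3 pairs within the family.

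**Figure D3:**
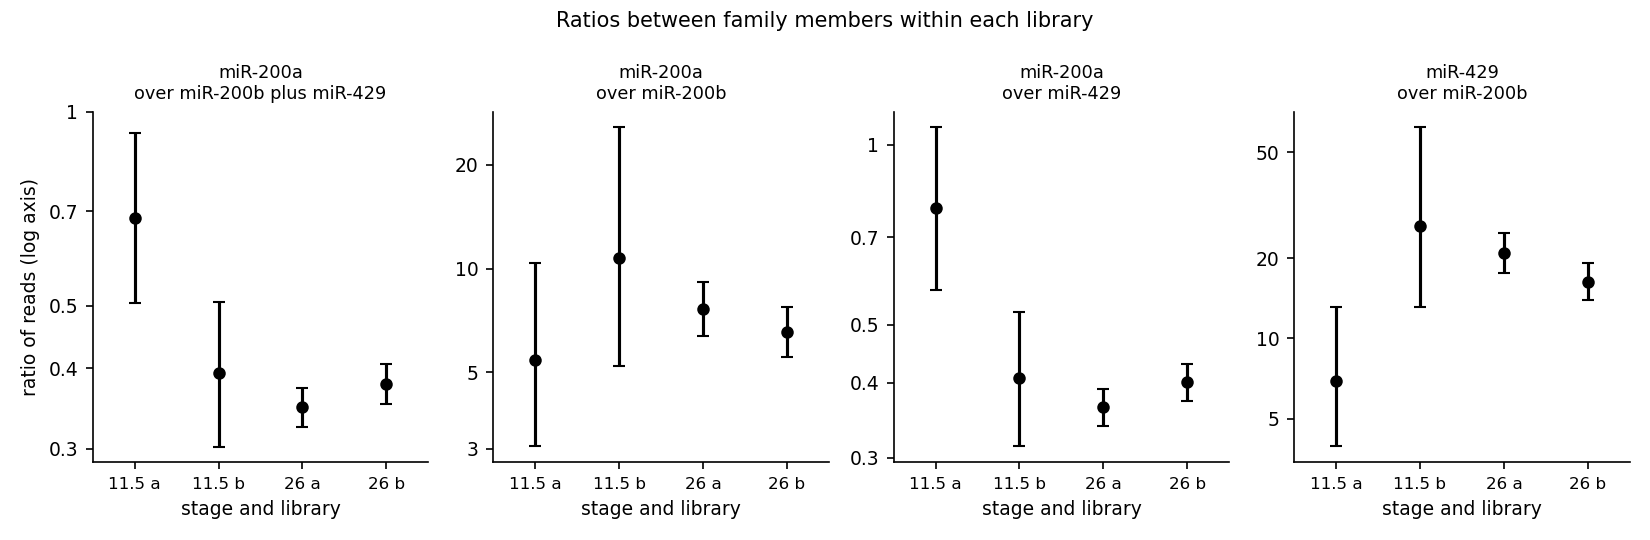
Ratios of reads between members (y axis, log scale) in the 4 libraries, with exact 95% intervals for counting error. The stage 11.5 libraries bracket the stage 26 libraries in both ratios to miR-200b, and library a of stage 11.5 stands above the others at 0.685 for the seed groups.

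The make-up of the family gives the same data as shares of its reads. miR-429 made up 51.9% (95% exact interval 44.5% to 59.2%) and 69.2% (63.7% to 74.3%) of family reads at stage 11.5. It made up 70.8% (69.4% to 72.2%) and 68.4% (66.9% to 69.8%) at stage 26. miR-200a made up 40.6% and 28.2%, then 25.8% and 27.4%, and miR-200b 7.49% and 2.62%, then 3.39% and 4.20%. In all 4 libraries the order was miR-429, miR-200a, miR-200b. In library a of stage 11.5 the interval for miR-200a against miR-429 (a ratio of 0.573 to 1.07) included equality, so these neighbours were not told apart there. Between stages, the mean share of miR-200a differed by -7.80 percentage points (exact permutation p = 0.333), and those of miR-429 and miR-200b overlapped between stages.

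**Figure D4:**
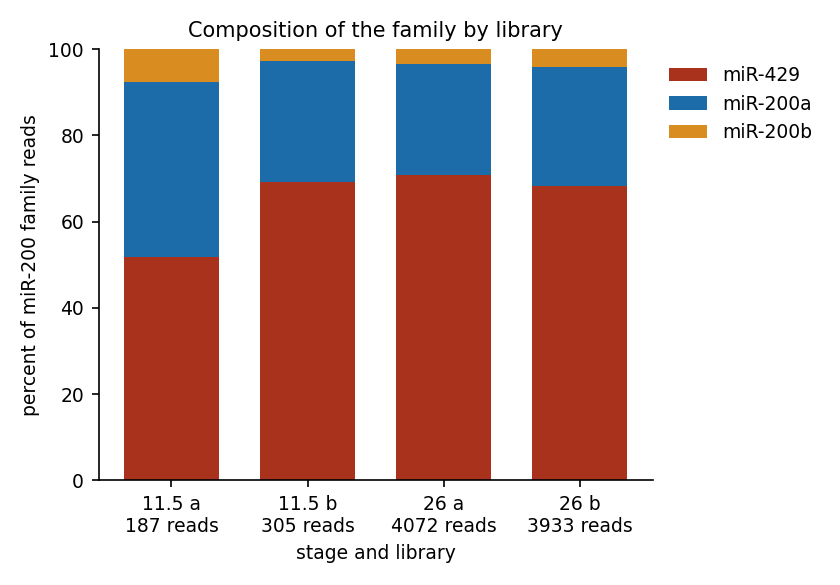
Percent of miR-200 family reads taken by each member in the 4 libraries, with the number of family reads under each bar. miR-429 takes 51.9% in library a of stage 11.5 and between 68.4% and 70.8% in the other libraries.

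The spread between libraries of a stage bears on each member. On the scaled log2 values, library b of stage 11.5 exceeded a by 0.55 for miR-429 and differed from a by -0.38 for miR-200a and by -1.29 for miR-200b. The median size of this difference over all 52 tested miRNAs was 0.51, so miR-200b was above it, in place 13 by size, and miR-429 slightly so, in place 24. At stage 26 the same differences were 0.09, 0.23 and 0.44, against a median size of 0.23. miR-429 and miR-200a thus moved in opposite directions between the stage 11.5 libraries, and all 3 moved in the same direction between those of stage 26.

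Among the tested miRNAs outside the family, those whose course over the 4 libraries was most like each member were found by the root mean square difference of centred scaled log2 values. For miR-200a they were miR-203 (0.0688), miR-26 (0.0987) and miR-181b (0.145), against a median of 0.876 over the other tested miRNAs. miR-203 is a skin miRNA that promotes keratinocyte differentiation in mammals. The ratio of miR-200a to miR-203 reads was 0.371 and 0.404 at stage 11.5, and 0.372 and 0.413 at stage 26. This ratio of members of different families was picked for its evenness, and varied less over the libraries than any ratio within the miR-200 family. miR-203 rose after scaling by 0.96 in log2 (SE 0.290, limma adjusted p = 0.0415), almost the size seen for miR-200a, which did not pass. miR-203 did not pass either with miR-427 out of the total (log2 0.36, limma adjusted p = 0.415). For miR-429 the nearest were miR-130c (0.125), miR-449 (0.207) and miR-181b (0.368), and for miR-200b they were miR-146b (0.302), miR-203 (0.306) and miR-191 (0.331), with miR-200a itself at 0.330. The ratio of miR-429 to miR-449, a miRNA of multiciliated cells, was 0.114 and 0.147 at stage 11.5 and 0.160 and 0.164 at stage 26. miR-181b had only 4 and 6 reads at stage 11.5 and miR-191 had 3 and 1, so their nearness rests on few reads. No member had another member as its nearest row. The difference was 0.330 between miR-200a and miR-200b, 0.438 between miR-200a and miR-429 and 0.708 between miR-200b and miR-429. The members with the same seed were thus the least alike, but the course of miR-200b rests on 14 and 8 reads at stage 11.5. These differences describe 4 libraries that share depth and scaling, and were not tested.

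**Figure D5:**
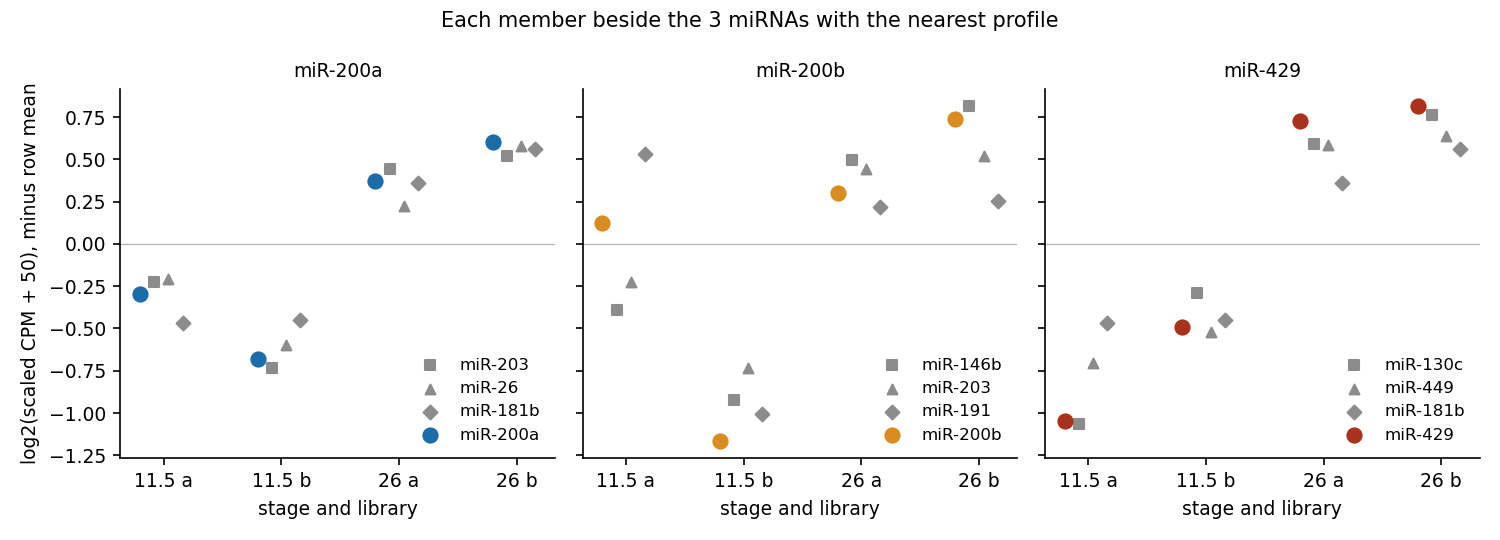
Scaled log2 values, minus the mean of the row, of each member (colour) and of the 3 miRNAs outside the family with the nearest course (grey), in the 4 libraries. miR-200a and miR-203 nearly coincide in all 4 libraries, and of the members miR-200b is scattered most at stage 11.5.

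Other epithelial and ciliated-cell miRNAs had 8 rows, of which 5 were tested. After TMM scaling 4 of the 5 rose and none fell (miR-203, miR-182, miR-449 and miR-34b), where 38.5% of tested miRNAs were called higher. Of these, miR-182 had 0 reads in both stage 11.5 libraries and 34 and 24 at stage 26. It passed the filter only through stage 26, so it could only be called higher. miR-34b, with 9 and 3 reads at stage 11.5 (397 and 98.7 CPM), also needed stage 26 to pass the filter, so its call carries that selection. Of the 5, 3 rose with miR-427 out of the total, miR-182 and miR-34b among them, against 27.5%, and the call of miR-203 was lost. In CPM as deposited all 5 were higher, against 71.2%. miR-205a, a miRNA of the basal epidermis in mammals, had 1 read over all 4 libraries. Markers of other tissues could be read only in part. The neural list of 3 names had 0 rows, so neural tissue was not measured. The mesenchyme and vessel list had 1 row for 5 names, endoderm 3 for 7, muscle 2 for 3 and blood 3 for 4. Rows that were listed were scarce. The muscle rows summed to 0.0691% to 0.0750% of reads at stage 11.5 and 0.143% to 0.160% at stage 26, with miR-206 at 0 at stage 11.5. The tested muscle row, miR-1b, fell after scaling (log2 -1.06, limma adjusted p = 0.0328), whereas as deposited it was higher (log2 0.82, limma adjusted p = 0.0404). The blood rows summed to 0.00987% to 0.0265% over the 4 libraries. The endoderm rows took 0.0329% to 0.110% and then 0.279% to 0.303%, with miR-192 and miR-215 at 0 at stage 11.5. Of these, miR-215 had 57 and 66 reads at stage 26 and was called higher after scaling (limma adjusted p = 0.000242), and miR-375 did not pass (log2 -0.66, limma adjusted p = 0.454). Like miR-182, miR-215 passed the filter only through stage 26, so it could only be called higher. miR-126, of vessels, took 0.0750% to 0.118% and then 0.00853% to 0.0215%, and fell after scaling (log2 -3.99, limma adjusted p = 0.000849). With 4 and 9 reads at stage 26, miR-126 passed the filter only through stage 11.5, so it could only be called lower. The part of these tissues in the levels of the miR-200 family was not tested.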

How the data were processed

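Small RNA libraries of Xenopus laevis epidermal explants were made with the SREK kit (Ambion), per the labels' protocols. The aligner and the miRNA database were not given in the sources used here. Deposited values are CPM, which the authors scaled so that each column sums to 1000000 over 98 miRNAs. Reads were recovered by dividing each column by its lowest nonzero value, with no independent check, so a planned test on counts was not used. The stage comparison used limma 3.58.1 in R 4.3.3 on log2 values with a mean-variance trend. These were log2(scaled CPM + 50), the scaled CPM being the deposited value over its library's TMM factor, which understates changes of low miRNAs. TMM factors came from the recovered reads of the tested rows, trimming 30% of M values and 5% of A values at each end. Rows were tested if they reached 276.7 CPM (10 reads at the median depth) in 2 or more libraries and had at least 15 reads over all 4. This left 52. P-values were adjusted by Benjamini-Hochberg over all of these, with a threshold of 0.05. Ratios and shares used exact two-sided permutation tests over libraries and Clopper-Pearson 95% intervals (Python version 3.11.15, scipy version 1.17.1). Without molecular identifiers, PCR reads do not count independent molecules, and intervals cover counting error only. The fit was tested on simulated data that held no change as large as that of miR-427, so this shift of the totals was not covered. Named miRNAs are the members, the miRNAs of fixed lists as counts, and the 3 tested rows outside the family nearest to each member. Alternatives covered scaling, filter, pseudocount, trend, each library left out, the replicate letter as a block and voom weights. The members and lists were chosen with earlier results of these data known. Sequences are those of the deposited table.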

Additional observations from a re-analysis of the deposited data

How the results depend on the processing

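Each member had 15 alternatives, 2 of which (TMM factors from all listed rows, and voom weights on recovered reads) were chosen after seeing the data. All 3 members stayed higher at stage 26 in each. The alternatives of filter, trend and replicate block leave the log2 fold changes as they were, so the direction there was fixed in advance. With no library left out, miR-429 passed in every alternative. In deposited CPM, where 71.2% of tested miRNAs were called higher, miR-200a (log2 2.94) and miR-200b (2.92) passed. miR-200b passed in no other alternative that kept every library. miR-200a also passed with relative log expression factors (1.21), with no filter (0.98) and without a trend (0.98). With each library left out in turn, log2 fold changes ran from 0.75 to 1.21 for miR-200a, from 0.37 to 1.74 for miR-200b and from 1.30 to 1.78 for miR-429, and total calls from 13 to 35 against 31. Where an arm then held 1 library, limma assumed that it varies like the other stage, so calls in those fits rest on that assumption. Without a filter 54 of 98 rows were called. With miR-427 out of the total the family share differed between stages by 3.82 percentage points, and by 3.798 with miR-428 and miR-302 also out, against 8.12. Leaving out libraries gave 7.77 to 8.48. The log2 ratio of miR-200a to miR-200b turned to 0.026 with 50 CPM added and ran from -0.61 to 0.38 over the omissions. That of miR-429 to miR-200b ran from -0.52 to 1.41, negative without library a of stage 11.5. The seed ratio ran from -0.92 to -0.11 and that of miR-200a to miR-429 from -1.03 to -0.09. The cause of these turns was not tested. No label says that the letters pair libraries, and same-letter deviations correlated at r = -0.26 across 52 miRNAs. With the letter as a replicate block, 29 miRNAs were called and no member's call changed (miR-429 log2 1.54, limma adjusted p = 0.00273). The planned edgeR and DESeq2 alternatives were not run because the recovery of reads from CPM had no independent check. The recovered reads still entered the scaling factors, the filter on reads, the exact intervals and the voom weights. At stage 11.5 the depth of 14 and 8 reads limits every statement on miR-200b.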
